A study of Mus musculus with 14 samples.

Results

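The bladder epithelium of mouse fetuses was compared at E14.5 and at E18.5, stages counted in days of gestation (E), across all genes that passed a filter on low counts. The comparison used the 4 bladder epithelium libraries of E14.5 and the 3 of E18.5, which came in 2 count tables joined on the gene symbol. Of the 55228 genes in the tables, 17481 passed the filter over these 7 libraries. The 7 libraries are those of the bladder among 14; the other 7 hold urethral epithelium of the same stages and enter only where stage changes are set side by side.

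All embryos were wild-type CD-1 mice, an outbred strain, and none was treated. The lower urinary tract was incubated in cold trypsin, the bladder was cut from the urethra, and the epithelium was pulled from the mesenchyme with forceps. Tissue of the female embryos of a litter was pooled, so that a library stands for 1 litter and not for 1 animal. The series' design text counts 4 litters at E14.5, while the extraction notes speak of 3 litters per sample type, so that 2 of the E14.5 libraries may share a litter; this was not tested. The bladder E14.5 and bladder E18.5 libraries differ in stage, in litter and in the table they were counted in, and these cannot be told apart. The separation is mechanical and the libraries are bulk RNA: fewer cells of a type and less RNA per cell cannot be told apart either. The question is how the lining of the bladder changes over the last days before birth.

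The urothelium, the lining of the bladder, is a layered epithelium. Superficial cells carry plaques of uroplakin proteins that make the surface tight, intermediate cells lie below them, and basal cells rest on the basement membrane through hemidesmosomes. Sonic hedgehog made by the urothelium signals to the mesenchyme below, which answers with smooth muscle and with signals back to the epithelium.

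The 7 libraries held between 21101269 and 36810672 counts. Levels below are CPM, counts relative to the library total, after the trimmed mean (TMM) scaling of edgeR, and a change is a log2 fold change of E18.5 over E14.5 with its standard error (SE). A gene was called when its Benjamini-Hochberg adjusted p in edgeR's quasi-likelihood test was under 0.05. By this rule 3698 genes were higher at E18.5, 21.2% of those tested, and 3519 were lower, 20.1%, and the median change of all genes was 0.02. The first principal component, which separated the stages, held 73.6% of the variance of the 7 libraries and the second 9.64%.

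The amount of mesenchymal RNA moved with stage and bears on every count that follows. The summed level of 16 mesenchyme genes was 2971, 936, 4439 and 2005 CPM in the E14.5 libraries and 31359, 26676 and 20434 CPM in the E18.5 libraries. The stages did not overlap, and the lowest E18.5 library lay more than 4 times above the highest of E14.5. The summed level of 7 pan-epithelial genes (the adhesion genes Cdh1 and Epcam, the splicing factors Esrp2 and Esrp1, the protease gene St14 and its inhibitors Spint2 and Spint1) went the other way, from 4038, 4283, 3779 and 4286 CPM to 2525, 2889 and 3291 CPM. Epcam and Cdh1, which encode adhesion molecules of epithelial cells, thus marked all libraries as epithelial while their share of the RNA fell.

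Results are therefore set beside 2 other fits. When libraries were scaled to the sum of those 7 pan-epithelial genes, 44.3% of genes were higher at E18.5 and 2.63% were lower, and the median change of all genes moved from 0.02 to 0.52. All 3698 genes called higher with TMM were also called higher with that scaling, while of the 3519 called lower only 459 kept their call. When the 14 libraries were fitted with the log level of the mesenchyme genes as a covariate, 1.08% of 18286 genes were higher at E18.5 and 1.95% were lower. Because the covariate follows stage closely in the bladder, that fit leaves little of a stage difference to be called, and a gene that it does not call is not shown to be unchanged. Nor is a gene that it calls shown to come from epithelium: 2 of 7 skeletal muscle genes were called higher with it. Of the 46 lists, 13 had a member called higher with the covariate and 15 a member called lower; no more than 2 members of a list were called in either direction except in the lists whose covariate counts are given below.

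**Figure D1:**
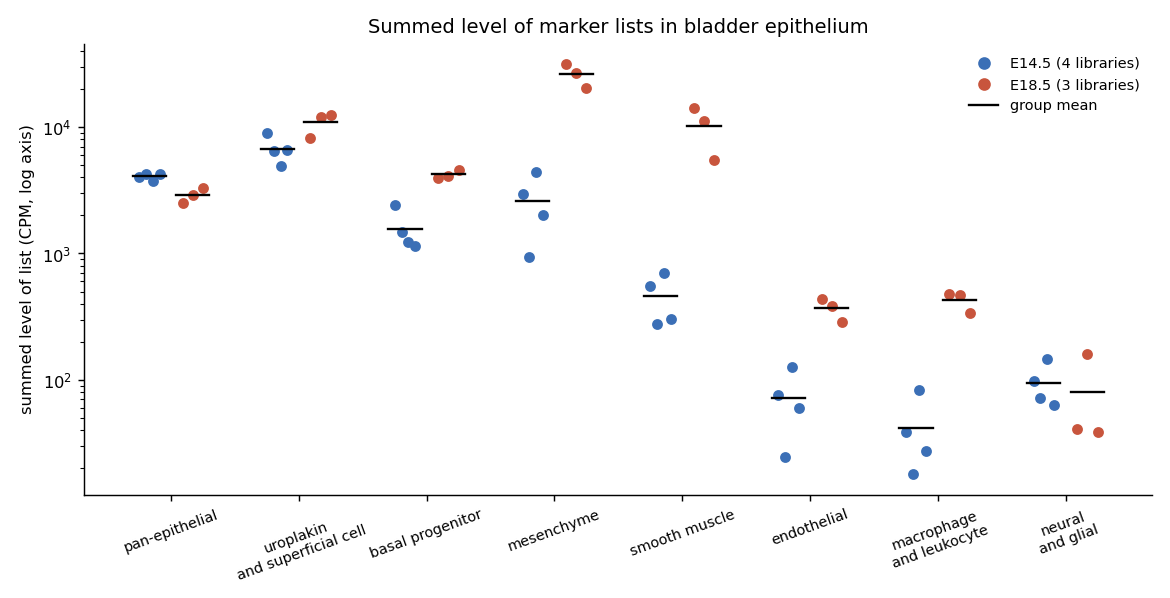
Summed CPM (log axis) of the members of 8 marker lists in each of the 7 bladder epithelium libraries, 4 of E14.5 and 3 of E18.5, with 1 point per library and a bar at the group mean. The mesenchyme sums of E18.5 lie at 20434 to 31359 CPM, above the 936 to 4439 CPM of E14.5, and the pan-epithelial sums of E18.5 lie at 2525 to 3291 CPM, below the 3779 to 4286 CPM of E14.5.

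Superficial cell genes were already high at E14.5 and rose modestly. Of 10 uroplakin and superficial cell genes, 5 were higher at E18.5 and none was lower, with a median change of 0.61; with pan-epithelial scaling 9 were higher. Upk3a, a subunit of the uroplakin plaque, was at 1331, 766, 423 and 786 CPM at E14.5 and at 1408, 1825 and 2018 CPM at E18.5. The stages did not overlap, but the first E14.5 library came within reach of the lowest E18.5 library. The change was 1.08 (SE 0.34, adjusted p = 0.0341). Upk1a (log2 fold change 0.86) and Upk1b (0.77), the tetraspanin partners in the plaque, rose with overlapping groups. Upk2 and Upk3b were not called, at changes of 0.42 and 0.38.

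Per kilobase of exon, Upk1a, Upk1b, Upk2 and Upk3a stood close together at E18.5, with means of 1518, 1405, 958 and 1602 CPM per kilobase. Upk3b stood below them at 161 CPM per kilobase. The uroplakin calls were fragile: without the third E18.5 library 1 of the 10 genes was still called, without the second also 1, and without the second or the fourth E14.5 library 2. With the third E18.5 library left out, Upk3a had a change of 0.98 at an adjusted p of 0.0952, and Upk1a and Upk1b had adjusted p of 0.0817 and 0.0621. Without the second E18.5 library the adjusted p of Upk3a, Upk1a and Upk1b were 0.0779, 0.0753 and 0.0553. Without the second or the fourth E14.5 library those of Upk3a were 0.0689 and 0.0753 and those of Upk1a 0.0592 and 0.0632, while Upk2 was called, at 0.0339, without the first E18.5 library.

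Simple epithelial keratins were high throughout. Krt18 was at 1441, 1282, 928 and 1382 CPM at E14.5 and at 1511, 2377 and 2715 CPM at E18.5, a 1.75-fold rise (adjusted p = 0.0219) that was lost without the second or the third E18.5 library (0.0647 and 0.0787). Its partner Krt8 was not called (0.26, adjusted p = 0.313; 0.45 and called, at 0.0235, without the first E18.5 library), and Krt7 rose 1.75-fold. Of the 10 genes of this list, 2 were higher and 2, Ap1m2 and Elf3, had changes of -0.48 and -0.53; with pan-epithelial scaling 7 were higher and none was lower. The call of Ap1m2 was lost without the second or the last E14.5 library or the second E18.5 library (adjusted p = 0.0532, 0.0525 and 0.0579), and that of Elf3 without the last E18.5 library (0.0695).

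Krt20, the keratin of fully differentiated superficial cells, changed more than the plaque genes. It was at 29.9, 25.2, 5.15 and 34.2 CPM at E14.5 and at 67.6, 178 and 220 CPM at E18.5. All E18.5 libraries were above all E14.5 libraries, with the third E14.5 library lowest. The change was 2.71 (SE 0.61, adjusted p = 0.00941), and it was called with pan-epithelial scaling and with the mesenchyme covariate (adjusted p = 0.00213 and 0.0485).

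The basal cell keratins Krt14 and Krt5 rose, Krt14 from a low level. Of 11 basal progenitor genes, 7 were higher and 1 was lower, with a median change of 1.08; with pan-epithelial scaling 8 were higher and none lower. Krt14 (chr11:100203162-100207548, GRCm38), a keratin of basal and progenitor cells, was at 3.41, 0.263, 1.39 and 0.693 CPM at E14.5 and at 215, 195 and 252 CPM at E18.5. It went from near absence to a high level in every E18.5 library. The fold was 154 (log2 fold change 7.27, SE 0.65, adjusted p = 0.000378), and the gene was also called with the mesenchyme covariate, at an adjusted p of 0.0254.

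Krt5, the partner keratin of basal cells, was at 546, 132, 54.8 and 67.6 CPM at E14.5 and at 1684, 1601 and 1953 CPM at E18.5. The first E14.5 library stood well above the other E14.5 libraries and below all of E18.5. The change was 3.12 (SE 0.78, adjusted p = 0.0147), and it was 4.36 without that first library. The same library was the highest of its group for Krt14, which changed by 8.26 without it. Trp63, the transcription factor that maintains basal cells, was flat with TMM at 217, 161, 110 and 154 CPM and then 162, 158 and 181 CPM (log2 fold change 0.06, adjusted p = 0.838). With pan-epithelial scaling Trp63 was called higher (change 0.57, adjusted p = 0.0398).

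Other basal list members split. Igfbp2, a binding protein of insulin-like growth factors, rose 7.08-fold and Dlk2, a Delta-like membrane protein, rose 3.6-fold (adjusted p = 0.000931 and 0.00157). Bcl11b, a zinc finger transcription factor, was the 1 member that fell: 14.6, 20.1, 19 and 18 CPM became 9.11, 9.89 and 8.39 CPM, a change of -0.97 (SE 0.15). With pan-epithelial scaling Bcl11b was not called (change -0.46, adjusted p = 0.0899).

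Genes of the hemidesmosome, the anchor of basal cells, moved with the basal keratins. Of 10 hemidesmosome and basement membrane laminin genes, 6 were higher and none lower (median 0.66), and all 10 were higher with pan-epithelial scaling. Col17a1, the transmembrane collagen of hemidesmosomes, was at 14.7, 3.83, 2.21 and 3.43 CPM at E14.5 and at 102, 89.2 and 129 CPM at E18.5. It rose 17.5-fold (log2 fold change 4.13, SE 0.61, adjusted p = 0.00181), and the first E14.5 library was again the highest of its group; without it the change was 5.06. Itgb4, the integrin subunit of the same structure, rose 2-fold, Dst, which encodes its plakin linker, rose 1.74-fold, and Cd151, its tetraspanin, rose 1.29-fold.

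**Figure D2:**
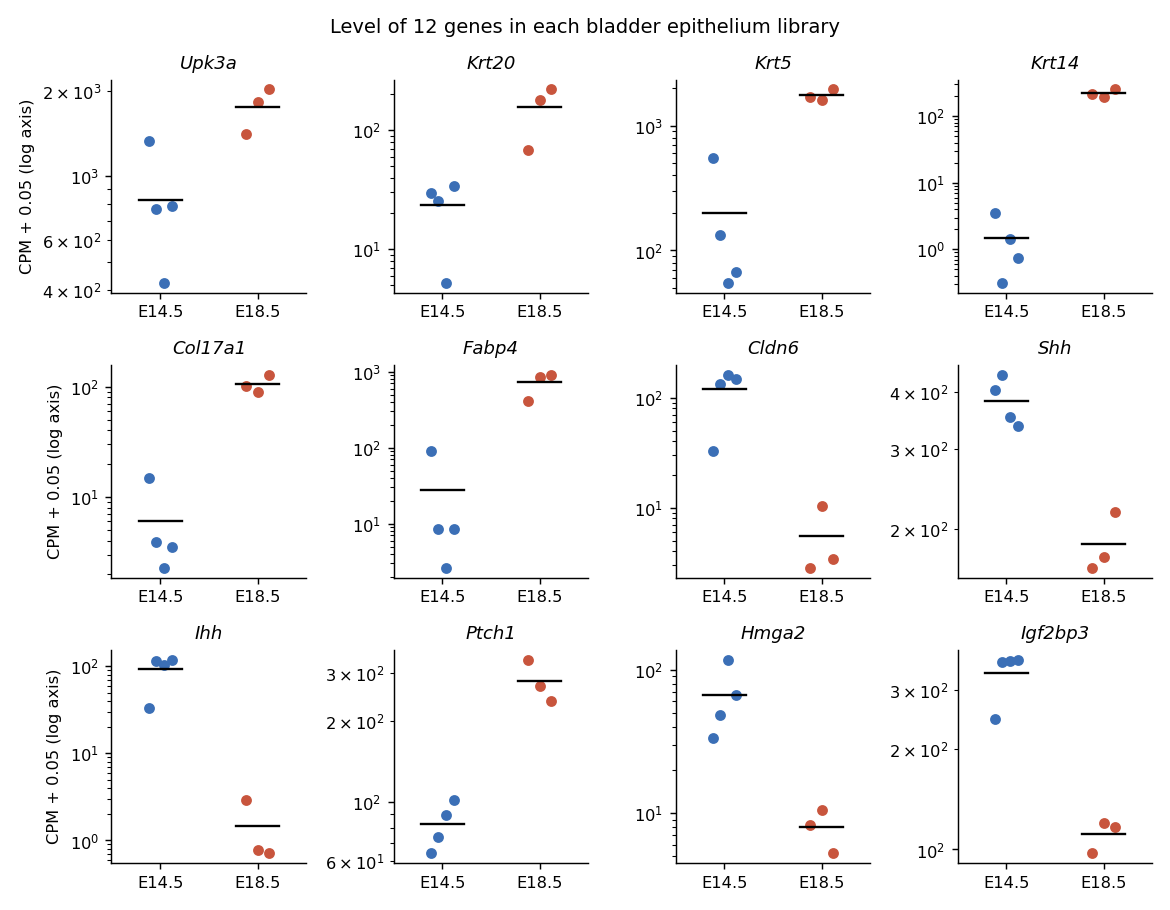
Level in CPM (log axis, values plotted after adding 0.05 so that zeros show) of 12 genes in each bladder epithelium library, 4 of E14.5 and 3 of E18.5, with 1 point per library and a bar at the group mean of CPM. Krt14 lies at 0.263 to 3.41 CPM at E14.5 and 195 to 252 CPM at E18.5, and Ihh lies at 33 to 119 CPM and then at 0.664 to 2.85 CPM.

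Junction genes moved in the opposite direction, and here the scaling decides. Of 17 tight junction genes tested, 2 were higher and 10 were lower with TMM (median -0.36), while with pan-epithelial scaling 6 were higher and 4 lower. Cldn6, a claudin of immature epithelia, fell under every scaling. It was at 32.8, 134, 163 and 147 CPM at E14.5 and at 2.76, 10.2 and 3.37 CPM at E18.5, with the first library again nearest to E18.5. The level dropped 21.5-fold (change -4.43, SE 0.71, adjusted p = 0.00255), and the gene was also called with pan-epithelial scaling (-3.94) and with the covariate (-4.66). Without the second E18.5 library the change was -5.27.

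Ocln and Marveld2, which encode occludin and tricellulin, fell by 0.97 and 0.91, and both were called with pan-epithelial scaling (changes of -0.48 and -0.42). The 2 tight junction genes that rose were Cldn10, from 0.315 to 1.11 CPM up to 6.17 to 8.97 CPM, and Cldn1, a claudin of stratified epithelia, which rose 2.02-fold. Of 9 desmosome genes tested, 4 were lower and 2 higher with TMM, whereas with pan-epithelial scaling none was lower and 2 were higher. Jup and Pkp2, armadillo proteins of the desmosome plaque, and Dsc2, a desmosomal cadherin, had changes of -0.47, -0.74 and -0.80 with TMM and of 0.04, -0.23 and -0.32 with pan-epithelial scaling.

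Genes of squamous and cornified epithelia were mixed. Of 18 tested, 10 were higher and 3 lower (median 0.86), and with pan-epithelial scaling 12 were higher and 1 was lower. Krtdap, a secreted protein of stratified epithelia, was at 0.0598, 0, 0.173 and 0.189 CPM at E14.5 and at 22.4, 22.1 and 19 CPM at E18.5. That was a 208-fold difference (log2 fold change 7.70, SE 0.55, adjusted p = 0.000218), and the covariate fit called it too. Krt13, a keratin of non-cornified stratified epithelia, rose 11.8-fold to 5.6 to 17.3 CPM. Lor, which encodes the cornified envelope protein loricrin, went the other way: 5.74, 22.6, 36.9 and 24.7 CPM became 1.54, 1.5 and 1.9 CPM, a change of -3.77 (SE 0.61, adjusted p = 0.00255). Lor was called lower with pan-epithelial scaling as well (-3.29).

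Krt13 separated the bladder from the urethra. Its change in urethral epithelium was 8.93, against 3.56 in the bladder, and the difference of the changes was -5.38 (adjusted p = 0.00671). Over all 18286 genes of that comparison, 12.2% had a bladder change above the urethral change and 10.7% had one below. With pan-epithelial scaling the median of these differences moved from -0.01 to 1.36, because the pan-epithelial sum fell with stage in the bladder and rose with stage in the urethra. A difference below 0 and smaller than that shift is therefore not stable against scaling. The mesenchyme sum moved differently in the tissues as well. In the urethra, scaled over 14 libraries, it lay at 2498 to 6756.5 CPM at E14.5 and at 4909 to 6074 CPM at E18.5. In the bladder it rose from 936 to 4439 CPM up to 20434 to 31359 CPM. The part of mesenchymal RNA in the differences between the tissues was not tested.

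Transcription factors that specify urothelium were mostly lower. Of 14, 9 were lower and 1 was higher with TMM (median -0.55); with pan-epithelial scaling 4 were lower and 2 higher. Klf5, a Krüppel-like factor of epithelial progenitors, was at 313, 351, 310 and 322 CPM at E14.5 and at 153, 161 and 177 CPM at E18.5, and dropped 1.98-fold (adjusted p = 0.000363). Rxra, the retinoid X receptor, and Foxa1, a pioneer factor of endodermal epithelia, dropped 1.97-fold and 1.85-fold. All 3 were also lower with pan-epithelial scaling, by 0.48, 0.47 and 0.40. Gata3, a zinc finger factor of urothelium, had a change of -0.56 that was lost when any library but the third of E14.5 was left out (adjusted p between 0.0600 and 0.0976) and was -0.05 with pan-epithelial scaling. Pparg, a nuclear receptor of urothelial differentiation, and Grhl3 were not called (changes of -0.40 and -0.54), though Pparg was called without the third E14.5 library (adjusted p = 0.0351) and Grhl3 without the first (0.0417).

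Klf4, a Krüppel-like factor of differentiating epithelial cells, was the exception. It was at 23.3, 21.7, 19.7 and 17.4 CPM at E14.5 and at 171, 133 and 137 CPM at E18.5. Replicates within a stage lay close together and the stages lay far apart: the change was 2.84 with an SE of 0.13 (adjusted p = 7.98e-05), and 2.91 with the mesenchyme covariate. The urethral change of Klf4 was 0.89, and the difference of 1.93 passed the test (adjusted p = 9.13e-05).

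Genes of fatty acid handling that respond to PPAR receptors rose while Pparg itself did not. Of 15, 8 were higher and 1 was lower (median 0.44), and with pan-epithelial scaling 11 were higher. Cd36, a fatty acid transporter, and Scd1, a fatty acid desaturase, rose 24.2-fold and 6.05-fold, and Plin4, a lipid droplet coat protein, rose 21.1-fold from at most 1.73 CPM to 11.3 to 28.5 CPM. Cd36 is also made by endothelium and macrophages, whose markers rose too, and their part in the result was not tested. Fabp4, a fatty acid carrier picked out here after its values were seen, was at 90.5, 8.43, 2.56 and 8.44 CPM at E14.5 and at 408, 840 and 918 CPM at E18.5. Its change was 4.71 (SE 1.15, adjusted p = 0.0134), and 6.78 without the first E14.5 library, which was more than 10 times above the others of its stage.

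Transport genes moved in both directions with TMM, and defence genes rose in part. Aqp3, a water channel of urothelium, was not called (339 to 665 CPM and then 496 to 543 CPM). Slc14a1, the urea transporter of urothelium, was at 54.9, 53.5, 36.9 and 71.9 CPM and then at 85.6, 129 and 117 CPM, a 2.03-fold rise (adjusted p = 0.0085). Of 9 transport genes tested, 2 were higher (Slc14a1 and Atp1b3, a sodium pump subunit that rose 1.33-fold) and 2 were lower (Scnn1a and Scnn1b, sodium channel subunits, with changes of -0.72 and -1.17). These shares lie near the 21.2% and 20.1% of all genes, and the list median was -0.12. With pan-epithelial scaling neither channel subunit was called, and both calls rested on single libraries. Scnn1a lost its call without the first or the fourth E14.5 or the first or the second E18.5 library (adjusted p between 0.0506 and 0.0948), and Scnn1b without any library but the third of E14.5 (between 0.0581 and 0.132). Of 12 mucosal defence genes tested, 7 were higher and none was lower, without the first E18.5 library 4 were higher, and with pan-epithelial scaling 8. Tlr4, the receptor for bacterial lipopolysaccharide, rose 9.97-fold, and Pigr, which carries antibodies across epithelium, rose 4.19-fold. With the covariate 0 of 16 defence genes were called. Macrophage markers rose in the same libraries, and their part in these rises was not tested.

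Genes of oxidative phosphorylation and cholesterol synthesis had few calls with TMM. Of 25 genes of oxidative phosphorylation, 5 were higher and 2 lower with a median change of 0.03, near the 0.02 of all genes, and pan-epithelial scaling, which shifts all genes up, called 22 higher. Of 18 cholesterol synthesis genes none was higher and 3 were lower with TMM, against 11 higher and none lower with pan-epithelial scaling. Of 11 sterol control genes, 7 were higher and 2 lower, with 8 and none with pan-epithelial scaling. Nr1h3, the sterol sensor LXR alpha, rose 16.8-fold from at most 0.693 CPM, and Srebf2, the activator of cholesterol synthesis, fell by 0.62. The part of other cell types in the rise of Nr1h3 was not tested. Of 14 glycolysis genes, 6 were higher and 2 lower, among them Pfkp, a phosphofructokinase, at 5.94-fold; without the second E14.5 library 2 were higher, and with pan-epithelial scaling 12.

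Genes of mitosis fell less in the bladder libraries than in the urethral libraries. The mesenchyme sum moved differently with stage in these tissues, and its part in this difference was not tested. Of 24 mitosis genes, 6 were lower in the bladder and none was higher (median -0.30), and with pan-epithelial scaling none was lower and 3 were higher. Mki67, a marker of cycling cells, was at 291, 377, 273 and 367 CPM at E14.5 and at 218, 246 and 306 CPM at E18.5. The groups overlapped and the change of -0.35 was not called (adjusted p = 0.117). In urethral epithelium all 24 mitosis genes were lower at E18.5, with changes from -1.66 to -0.69. For 22 of the 24 the bladder change lay above the urethral change, and for none below it. Over all genes 12.2% lay above and 10.7% below. Pan-epithelial scaling gave 24 and none, but with it 12881 of all 18286 genes lay above and 273 below.

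Bub1b, a spindle checkpoint kinase, had a bladder change of -0.72 and a urethral change of -1.66, and the difference of 0.91 was called (adjusted p = 0.0139). For Mki67 the urethral change was -1.49 and the difference 1.11 (adjusted p = 0.00596). The number of mitosis genes lower in the bladder rested on single libraries: it was 2, 1 and 3 without the first, the second and the third E18.5 library and at most 16 without an E14.5 library.

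DNA replication genes were lower in the bladder as well. Of 23, 14 were lower and 1 was higher with TMM (median -0.55), against 1 lower and 3 higher with pan-epithelial scaling; without the third E18.5 library 7 were lower, and without the first 8. Cdc6, which loads the replicative helicase, was at 56, 92.5, 72.7 and 90.5 CPM and then at 26.7, 45.8 and 36.3 CPM. It dropped 2.15-fold (adjusted p = 0.00717) and was the 1 member also called lower with pan-epithelial scaling (-0.60). E2f1, a transcription factor of S phase entry, was the 1 member that rose, by 0.67 (19.9 to 25.2 CPM and then 31.7 to 37.1 CPM). In the urethra all 23 were lower, and for 7 of 23 the bladder change lay above the urethral one, or for 13 with libraries of the same stage and number taken as 1 litter.

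Inhibitors of cyclin-dependent kinases rose. Of 10, 6 were higher and none lower (median 0.70), and 7 were higher with pan-epithelial scaling. Cdkn2c, which encodes p18, was at 5.71, 7.01, 6.84 and 6.55 CPM at E14.5 and at 24.4, 18 and 21.2 CPM at E18.5 (log2 fold change 1.70, SE 0.15, adjusted p = 0.000378). Cdkn1b, which encodes p27, was at 64.5, 53.6, 45.9 and 45.8 CPM and then at 118, 114 and 140 CPM (1.24, SE 0.14). Neither gene's stages overlapped, and both were called with the covariate (adjusted p = 0.0254 and 0.0358). Cdkn1a, which encodes p21, rose 4.16-fold.

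**Figure D3:**
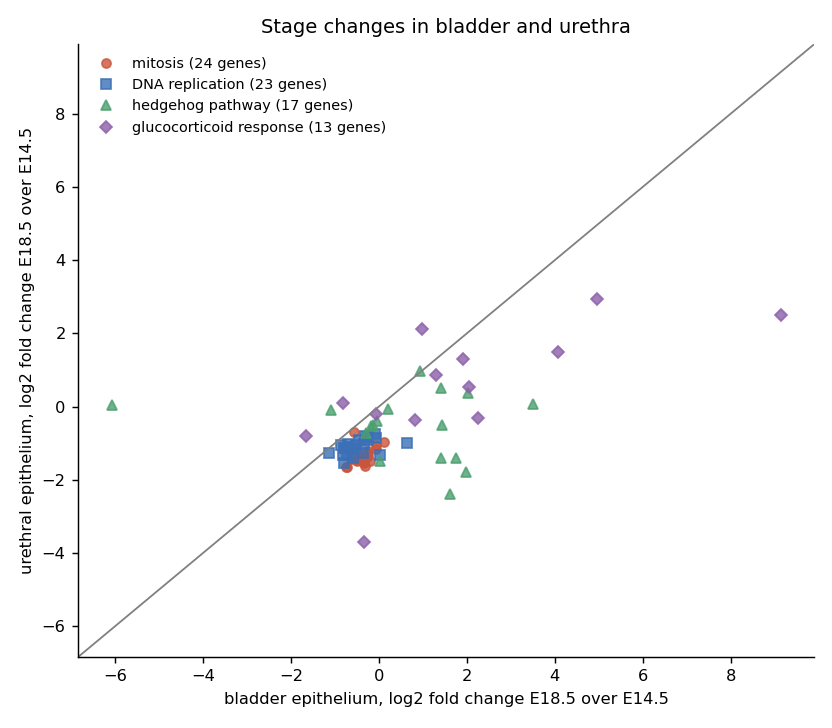
Log2 fold change of E18.5 over E14.5 in bladder epithelium (x axis) against urethral epithelium (y axis), 1 point per gene from 1 fit of the 14 libraries, for the members of 4 lists. The line marks equal changes. All 24 mitosis genes lie below the line, at urethral changes of -1.66 to -0.69.

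Fetal growth timing genes fell under every scaling. The RNA-binding and chromatin proteins of this list (Lin28b, Hmga2, the Igf2bp family, Trim71, Arid3a) mark fetal and progenitor states and are known targets of the let-7 microRNAs, which accumulate as tissues mature. MicroRNA levels were not measured in these libraries. The let-7 sequences below, from RefSeq (GRCm38.p6), show the shared seed, bases 2 to 8, in capitals; mature miRNAs with this seed number 11 in that table.
let-7a-5p: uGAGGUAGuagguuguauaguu
let-7b-5p: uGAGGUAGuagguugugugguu
miR-98-5p: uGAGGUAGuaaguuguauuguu

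The seed pairs with the 8-base site CTACCTCA, which was searched in the longest annotated 3′ untranslated region of each gene (GENCODE M21, GRCm38, sense strand). Of the 9 timing genes tested, 7 had at least 1 such site, against 4.37% of 14441 tested genes. The list holds known let-7 targets, so a high share was fixed beforehand and is no result of these data. The regions of the 9 genes were 913 to 6337 bases long, against a median of 1351 bases over the tested genes. The site was found for 5.61% of genes lower at E18.5, for 3.38% of those higher and for 4.27% of those not called, with median region lengths of 1562, 1221 and 1319 bases; the share and the length moved together. The windows below end in the site, in capitals, and show its setting in the genes whose change was clearest.
Hmga2 (chr10:120364224-120364253, minus strand): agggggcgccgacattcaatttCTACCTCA
Igf2bp1, the first of 3 sites (chr11:95961778-95961807, minus strand): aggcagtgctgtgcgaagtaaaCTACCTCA
Igf2bp2 (chr16:22059473-22059502, minus strand): gagaaaaacacacaaataaaagCTACCTCA
Igf2bp3 (chr6:49086787-49086816, minus strand): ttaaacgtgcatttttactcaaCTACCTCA
Trim71, the first of 4 sites (chr9:114512472-114512501, minus strand): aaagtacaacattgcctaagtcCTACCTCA
Arid3a (chr10:79953888-79953917, plus strand): cacatgcaaggcaagtttctttCTACCTCA

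Of the 9 timing genes, 7 were lower at E18.5 and none was higher (median -1.25); 6 were lower with pan-epithelial scaling and 4 with the covariate. Hmga2 (chr10:120361275-120476469), a chromatin protein of fetal cells, was at 33.5, 47.9, 117 and 67 CPM at E14.5 and at 8.25, 10.5 and 5.22 CPM at E18.5. It dropped 8.25-fold (change -3.04, SE 0.47, adjusted p = 0.00222), and without overlap of the stages. Igf2bp3, an RNA-binding protein of fetal tissue, was at 247, 366, 368 and 370 CPM and then at 97.4, 120 and 116 CPM, a 3.03-fold drop (adjusted p = 0.000566). Its relative Igf2bp1 dropped 3.03-fold too, from 67.7, 110, 120 and 115 CPM to 29.7, 36.7 and 35.4 CPM.

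Igf2bp2 was nearly constant within a stage, at 152, 162, 152 and 162 CPM and then at 84.9, 74.9 and 75.5 CPM, and dropped 2-fold (adjusted p = 0.000249). Hmga2, Igf2bp1, Igf2bp2 and Igf2bp3 were the 4 members also called lower with the mesenchyme covariate, at adjusted p of 0.00743, 0.0466, 0.0265 and 0.0311. Trim71, a ubiquitin ligase of the same pathway, dropped 3.66-fold, from 24.2 to 32.9 CPM down to 6.34 to 8.94 CPM. Lin28b, the inhibitor of let-7 maturation, was low at 0.882 to 1.52 CPM and then at 0.19 to 0.62 CPM, and was not called (change -1.25, adjusted p = 0.0587). Arid3a and Hmga1 were the others that fell, by 0.93 and 0.78; Hmga1 and Mycn, which was not called, had no 8-base site.

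Imprinted growth genes were mixed, and their balance turned with the covariate. Of 16, 6 were higher and 1 was lower with TMM (median 0.33), 9 were higher with pan-epithelial scaling, and none was higher and 2 were lower with the covariate (median -0.76). H19, a maternally expressed noncoding RNA, was the 1 that fell: 3030, 5228, 5946 and 5033 CPM became 2599, 2462 and 1957 CPM (change -1.04, SE 0.23, adjusted p = 0.00897), which pan-epithelial scaling did not call (-0.52, adjusted p = 0.152). Igf2, the growth factor gene next to H19, was at 39.3, 58.1, 90.5 and 70.4 CPM and then at 54.2, 42.5 and 29.7 CPM and was not called (-0.61, adjusted p = 0.138), except without the first E14.5 library (-0.79, adjusted p = 0.0395). Dlk1, Plagl1 and Sgce rose 7.85-fold, 2.43-fold and 5.4-fold; with the covariate their changes were -0.27, -0.06 and 0.81 and none was called.

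Posterior Hox genes, which mark the caudal end of the body axis, diverged. Of 14 tested, 5 were lower and 1 was higher with TMM, 3 lower and 4 higher with pan-epithelial scaling, and 4 lower and 1 higher with the covariate. Hoxa11 was the 1 that rose: it went from 38.8, 33.3, 29.6 and 31.9 CPM to 75.8, 64.4 and 70.4 CPM (log2 fold change 1.07, SE 0.11, adjusted p = 0.000559), also called with the covariate. Hoxb13 went from 28.1, 57.8, 54.7 and 59.3 CPM to 9.38, 10.5 and 13.8 CPM (change -2.16, SE 0.29, adjusted p = 0.00125), called with pan-epithelial scaling but not with the covariate. Hoxd13 dropped 3.49-fold and was called in all 3 fits. Neither Hoxa11, Hoxb13 nor Hoxd13 had overlapping stages.

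Hedgehog ligands fell and hedgehog target genes rose. Ihh (chr1:74945315-74951672), which encodes Indian hedgehog, was at 33, 114, 104 and 119 CPM at E14.5 and at 2.85, 0.73 and 0.664 CPM at E18.5. It was nearly lost in every E18.5 library, a 65.9-fold drop (change -6.04, SE 0.70, adjusted p = 0.000806); without the first E18.5 library, the highest of its group, the change was -7.07. Its urethral change was 0.04, and the difference of -6.11 was called (adjusted p = 0.00124). Ihh was called lower with pan-epithelial scaling and with the covariate, by 5.47 and 6.29.

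Shh (chr5:28456815-28467256), the main ligand of the urothelium, was at 403, 437, 352 and 337 CPM at E14.5 and at 164, 173 and 217 CPM at E18.5. It dropped 2.07-fold without overlap (change -1.05, SE 0.14, adjusted p = 0.00116) and by 0.56 with pan-epithelial scaling. Per kilobase of exon, Shh was at 134 and 64.8 CPM per kilobase at the 2 stages and Ihh at 30.3 and 0.465, so that Shh remained the more abundant of the pair. Ptch1, the hedgehog receptor and itself a target gene, was at 64.3, 74.1, 89.3 and 102 CPM and then at 337, 268 and 237 CPM. Ptch1 rose 3.41-fold (adjusted p = 0.000539), Hhip, a decoy receptor, rose 11.6-fold and Gli1, the transcriptional readout of the pathway, rose 4.01-fold.

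These 3 targets are expressed mainly in mesenchyme next to epithelium, and the mesenchyme sum rose in the same libraries. The part of mesenchymal RNA in the rise of the 3 targets was not tested. With the mesenchyme covariate none of the 17 hedgehog genes was higher and 4 were lower, and the changes of Ptch1, Hhip and Gli1 were 1.10, 1.77 and -0.11, none of them called. In the urethra Ptch1 and Gli1 fell by 1.39 and 1.77. Over the list, 5 of 17 genes were higher in the bladder and 2 lower, with 8 and 2 with pan-epithelial scaling; without the first E18.5 library 3 were higher.

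Wnt ligands mostly rose, while Wnt7b of the epithelium fell. Of 12 Wnt ligands tested, 7 were higher and 2 lower, and with pan-epithelial scaling 9 were higher and 1 was lower. Wnt7b, a ligand of epithelia, was at 134, 165, 132 and 178 CPM and then at 53.3, 85.6 and 78.4 CPM, a 2.1-fold drop (adjusted p = 0.00323). Wnt2, a ligand of mesenchyme, rose 7.7-fold, to 66.9 to 94.8 CPM. Wnt6 rose 3.28-fold, from 4.57 to 5.55 CPM up to 12.8 to 18.9 CPM, and kept its call with the covariate (change 1.94, adjusted p = 0.0124); its urethral change was -1.06.

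Of 13 Wnt targets and feedback genes tested, 9 were higher and 3 were lower. Axin2, a general target of the pathway, rose 3.67-fold, and Notum, a secreted Wnt inhibitor, rose 14.3-fold from 0.893 to 2.17 CPM up to 15.1 to 26.1 CPM. Rnf43, Znrf3 and Lgr4, membrane proteins that set the amount of Wnt receptor, were the 3 that fell, by 1.20, 0.77 and 0.67. With pan-epithelial scaling 9 were higher and Rnf43 alone was lower. With the covariate none of the list was called.

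Receptors for fibroblast growth factors (FGF) fell and a mesenchymal ligand rose. Fgfr3 was at 220, 257, 211 and 216 CPM and then at 102, 99.4 and 147 CPM, and Fgfr2 was at 371, 411, 317 and 409 CPM and then at 199, 187 and 264 CPM. Both are receptors of urothelial cells, and they dropped 1.95-fold and 1.74-fold without overlap (adjusted p = 0.00252 and 0.0044); with pan-epithelial scaling Fgfr3 was called and Fgfr2 was not. Fgf7, a ligand made by mesenchyme, rose 27.4-fold from at most 0.718 CPM to 6.64 to 11.6 CPM, and 5.67 log2 units without the first E14.5 library. Of 18 FGF pathway genes tested, 8 were higher and 2 lower, and 4 or 5 were higher without the first or the second E18.5 library; with pan-epithelial scaling 12 were higher and 1 was lower.

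Of 21 BMP and TGF-beta pathway genes tested, 8 were higher and 6 lower, and with pan-epithelial scaling 13 were higher and none was lower. Bmp4 and Tgfb1, both secreted ligands, rose 4.74-fold and 5.1-fold, and Id1, a target of BMP signalling, was at 307, 338, 305 and 362 CPM and then at 184, 174 and 201 CPM. Id1 fell by 0.82 with TMM (adjusted p = 0.000785) and had a change of -0.31 with pan-epithelial scaling (adjusted p = 0.0521). Of 16 Notch genes tested, 9 were higher and 2 lower, with 11 and none with pan-epithelial scaling. Nrarp, a feedback inhibitor of Notch, was at 29.1, 28.7, 28.5 and 26.5 CPM and then at 82.8, 109 and 81.1 CPM (log2 fold change 1.69, SE 0.11, adjusted p = 0.000213). It was the 1 Notch gene also called higher with the covariate. Notch3 had changes of -0.75 with TMM and -0.24 with pan-epithelial scaling.

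Genes of the response to glucocorticoid hormone and of its handling rose in large part, and several kept their call with the covariate. The list holds Hsd11b1 and Hsd11b2, enzymes that act on the hormone, besides genes that respond to it. Fetal glucocorticoid rises before birth in mammals and matures several epithelia. Of 13, 9 were higher and none was lower (median 1.33); 10 were higher with pan-epithelial scaling and 5 with the covariate. All 9 genes called kept their call without each single bladder library in turn. Per1, a clock gene with a glucocorticoid response, was at 32.6, 28, 27.8 and 28.5 CPM at E14.5 and at 69.5, 69.9 and 81.4 CPM at E18.5, a 2.52-fold rise (SE 0.10 on the log2 scale, adjusted p = 0.000218).

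Cebpd, a transcription factor of differentiation and stress, was at 2.69, 1.1, 1.86 and 1.58 CPM and then at 33.9, 26.6 and 32.3 CPM, 17.1-fold up. Dusp1, a phosphatase that limits MAP kinases, rose 4.24-fold. Hsd11b1, the enzyme that reactivates glucocorticoid, was at 0, 0.0525, 0.303 and 0 CPM and then at 44.6, 49.6 and 41 CPM. That was a change of 9.19 (SE 0.62, adjusted p = 0.000213), and of 10.86 without the third E14.5 library. Per1, Cebpd, Dusp1 and Hsd11b1 were each called with the covariate, at adjusted p of 0.0359, 0.00504, 0.0254 and 0.0311. The glucocorticoid receptor gene Nr3c1, picked out after its values were seen, was flat at 117, 110, 102 and 122 CPM and then 112, 112 and 105 CPM (change -0.03, adjusted p = 0.757). Hsd11b2, which inactivates glucocorticoid, was at 2.08 to 8.7 CPM and then at 1.04 to 6.71 CPM and was not called. The mineralocorticoid receptor Nr3c2 dropped 2.34-fold, while the estrogen receptor Esr1 rose 2.59-fold and Srd5a1, a steroid reductase, rose 1.55-fold. The call of Srd5a1 was lost without the second or the last E14.5 library or the second or last E18.5 library (adjusted p between 0.0666 and 0.112).

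Interferon response and antigen presentation genes rose almost as a whole. Of 18, 17 were higher and none was lower (median 2.34); all 18 were higher with pan-epithelial scaling and 6 of 17 with the covariate. B2m, the light chain of MHC class I, was at 35.2, 31.5, 40.7 and 32.5 CPM at E14.5 and at 121, 114 and 103 CPM at E18.5. It rose 3.22-fold with little spread inside a stage (SE 0.11 on the log2 scale, adjusted p = 0.000205). Isg15, a ubiquitin-like protein induced by interferon, was at 0.12, 0.158, 0.0866 and 0.063 CPM and then at 5.62, 4.6 and 4.22 CPM, a 42.4-fold rise (adjusted p = 0.000205). Bst2, a membrane protein that tethers viruses, rose 8-fold, and Ifit1, an RNA-binding effector, rose 10.5-fold but reached only 1.09 to 1.86 CPM. Stat2, a transcription factor of the response, was the 1 member not called (change -0.04).

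Macrophage and leukocyte markers rose in the same libraries, from a sum of 17.8 to 82.3 CPM up to 339 to 474 CPM, and their part in the interferon result was not tested. B2m, Isg15 and Bst2 were called with the covariate, at adjusted p of 0.0138, 0.0188 and 0.0234. Interferon-induced promoters often hold a response element, and its core GAAANNGAAA was searched on both strands from 250 bases before to 50 after the annotated start. It was found in 6 of 15 list members with a promoter in the RefSeq table, Stat2 among them, and in 3.99% of the 27025 genes of that table. The list was made of interferon response genes, so a high share was fixed beforehand and is no result of these data. The promoters of Isg15, with 3 overlapping matches, of Ifit1, with 2, and of B2m, with 1, are shown with the matches in capitals (GRCm38.p6).
Isg15 (chr4:156200769-156201068, minus strand): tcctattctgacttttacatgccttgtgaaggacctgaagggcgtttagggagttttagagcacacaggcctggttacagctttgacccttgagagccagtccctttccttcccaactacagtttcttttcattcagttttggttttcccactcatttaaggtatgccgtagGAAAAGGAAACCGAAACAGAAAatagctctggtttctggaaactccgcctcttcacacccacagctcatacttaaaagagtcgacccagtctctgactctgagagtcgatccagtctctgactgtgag
Ifit1 (chr19:34640639-34640938, plus strand): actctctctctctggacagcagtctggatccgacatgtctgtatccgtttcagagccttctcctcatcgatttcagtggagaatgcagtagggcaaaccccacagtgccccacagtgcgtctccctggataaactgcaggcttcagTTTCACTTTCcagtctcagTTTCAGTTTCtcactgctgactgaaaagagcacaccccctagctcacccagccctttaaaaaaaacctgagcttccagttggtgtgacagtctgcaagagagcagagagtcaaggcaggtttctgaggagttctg
B2m (chr2:122147437-122147736, plus strand): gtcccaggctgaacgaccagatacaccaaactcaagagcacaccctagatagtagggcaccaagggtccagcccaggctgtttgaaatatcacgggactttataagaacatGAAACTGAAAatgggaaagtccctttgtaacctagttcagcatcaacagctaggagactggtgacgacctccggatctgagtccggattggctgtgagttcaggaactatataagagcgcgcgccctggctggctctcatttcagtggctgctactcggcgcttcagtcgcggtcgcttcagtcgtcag

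Xenobiotic response genes rose in part. Ahrr, the repressor induced by the aryl hydrocarbon receptor, was at 0.299, 0.21, 0.433 and 0.126 CPM at E14.5 and at 16.5, 14.7 and 16.4 CPM at E18.5. The fold was 60.3 (log2 fold change 5.91, SE 0.34, adjusted p = 0.000179), the change was 4.62 with the covariate (adjusted p = 0.00442) and 0.81 in the urethra, and the difference of 5.07 was called (adjusted p = 9.13e-05). Hmox1, heme oxygenase, rose 2.07-fold and Tiparp, another target of that receptor, rose 1.83-fold. Txnrd1, a thioredoxin reductase, was the 1 of 16 members that was lower (change -0.67), against 9 that were higher; with pan-epithelial scaling 12 were higher and none lower. The core of the receptor's response element, TNGCGTG on either strand, was in the promoter of Ahrr, in capitals here, the 1 of 11 members with a promoter in the table that held it, and in 5.84% of all genes of the table.
Ahrr (chr13:74292282-74292581, minus strand): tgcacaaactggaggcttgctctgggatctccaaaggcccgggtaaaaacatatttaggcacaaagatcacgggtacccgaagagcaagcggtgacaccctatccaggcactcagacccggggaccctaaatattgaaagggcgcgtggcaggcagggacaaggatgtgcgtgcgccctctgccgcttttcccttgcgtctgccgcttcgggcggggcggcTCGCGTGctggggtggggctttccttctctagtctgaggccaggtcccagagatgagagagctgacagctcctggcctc

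Other cell types contributed RNA that grew with stage. All 10 endothelial and all 12 macrophage genes were higher at E18.5, as were 13 of 16 mesenchyme and 9 of 11 smooth muscle genes, and none of these 4 lists had a lower member. Col3a1, a fibrillar collagen of mesenchyme, was at 741, 206, 976 and 566 CPM and then at 7857, 6822 and 5450 CPM. Des, which encodes desmin of muscle cells, went from 10, 2.15, 10.8 and 2.33 CPM to 932, 844 and 274 CPM, a 109-fold difference (SE 0.77 on the log2 scale, adjusted p = 0.000773). The third E18.5 library was the lowest of its stage for both, as it was for the smooth muscle sum, at 5481 CPM against 11211 and 14122 CPM.

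Col1a1, another collagen, rose 10-fold and Acta2, smooth muscle actin, rose 18-fold. Pecam1 of endothelium rose 7.63-fold and Mrc1 of tissue macrophages rose 14-fold. Mast cell proteases were absent or near 0 at E14.5. Cpa3, a carboxypeptidase of mast cells, was at 0.0598, 0, 0.26 and 0 CPM and then at 42.9, 58.2 and 37.5 CPM, a change of 9.38 (SE 0.62), or 10.89 without the third E14.5 library. Tpsb2, a tryptase, had no count at E14.5 and was at least 1314-fold higher at E18.5, against a floor of 3 counts over the 4 libraries together. Cma1, a chymase, had 2 counts at E14.5 and 3163 at E18.5, a ratio of 2832 with a 95% interval of 783 to 23393 that covers counting error only. Kit, the receptor of stem cell factor, was the exception of the mast cell list: 57.2, 99.2, 82.8 and 91.8 CPM became 17.3, 10.3 and 15.6 CPM, a 5.76-fold drop called in all 3 fits.

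Embryonic globins fell to near 0. Hbb-y was at 3.59, 11.1, 137 and 26 CPM and then at 0, 0 and 0.19 CPM, a change of -9.49 (SE 1.99, adjusted p = 0.00728), and -7.83 without the third E14.5 library, -8.80 without the second and -13.32 without the third E18.5 library. The same E14.5 library, the third, also had the highest mesenchyme and endothelial sums of its stage. Hba-x went from 1.44, 2.15, 19 and 5.29 CPM to 2 counts in all of E18.5, a ratio of 206 with a 95% interval of 56.7 to 1700. Neural genes were high in single libraries of both stages: Tubb3, a neuronal tubulin picked out after its values were seen, was at 15.6, 2.65, 28.5 and 1.92 CPM and then at 3.81, 36.7 and 3.04 CPM.

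Ret, a receptor of the neural list that is known also from urogenital epithelium, was called lower, at 45.4, 51.6, 39.1 and 43.8 CPM and then at 5.84, 13.9 and 5.31 CPM, a 5.36-fold drop. Msln, a mesothelial marker that urothelium can express, dropped 3.62-fold, from 170, 247, 265 and 222 CPM to 60.3, 74.8 and 52.2 CPM. Its urethral change had the opposite sign, at 2.75, and the difference of -4.63 was called (adjusted p = 0.00136).

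The remaining lists held few or mixed calls. Of 14 retinoic acid genes tested, 1 was higher and 1 was lower, with none lower and 3 higher with pan-epithelial scaling; with the covariate 4 were lower. Of 9 urethral patterning genes tested, 2 were lower and 1 was higher, with pan-epithelial scaling 1 and 2. Sox2, a transcription factor of that list, was at 10.3, 17.5, 16 and 13.7 CPM and then at 4.35, 4.41 and 4.08 CPM, a 3.35-fold drop without overlap. Of 14 immediate early and stress genes tested, 6 were higher and 1 was lower, with none lower with pan-epithelial scaling. Jun and Atf3, transcription factors that tissue handling can induce, rose 2.53-fold and 8.5-fold. Of 9 regulators and markers of epithelial-mesenchymal transition, 6 were higher and 1 was lower (Ovol1, at -0.96, -0.47 with pan-epithelial scaling, and not called without the second or the last E14.5 library or the first or last E18.5 library, at adjusted p between 0.0520 and 0.0705), and none was called with the covariate. Of 6 skeletal muscle genes tested, 4 were higher, among them Acta1 and Ckm, and 3 of 6 mesothelial and 4 of 9 erythroid genes were higher, with 1 and 2 lower. With the covariate 5 erythroid genes were lower and none was higher.

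**Figure D4:**
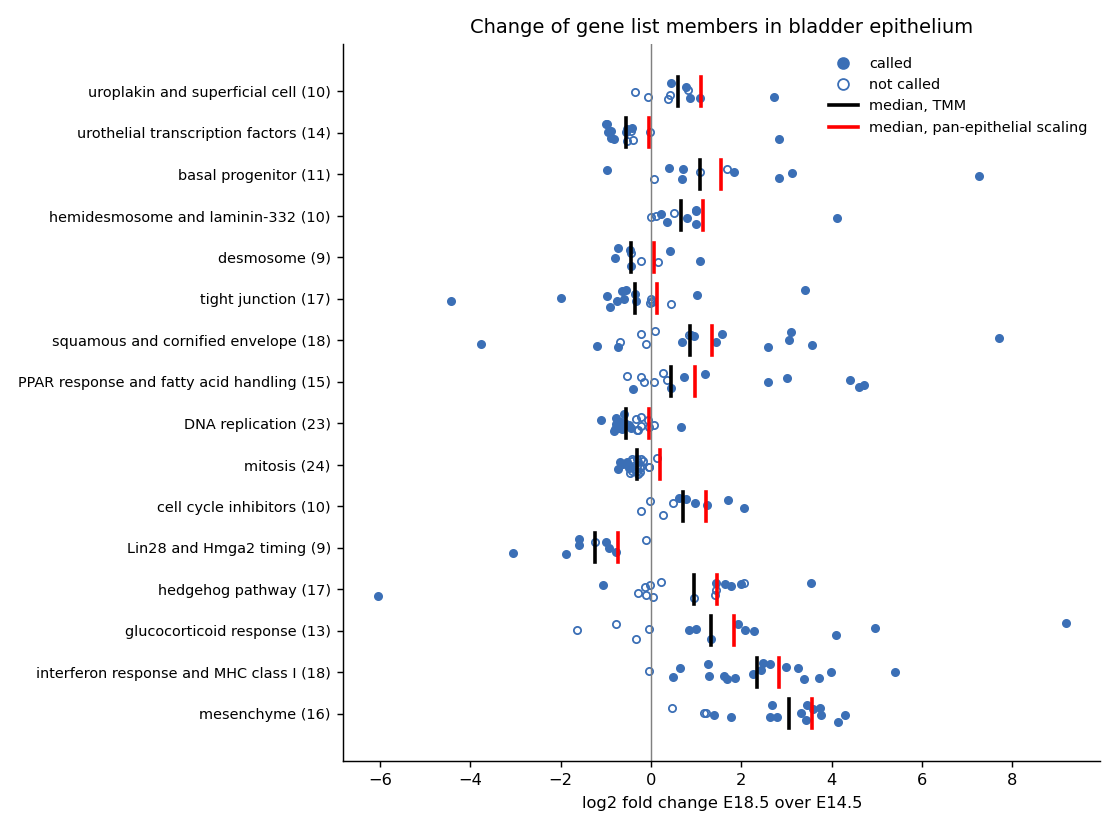
Log2 fold change of E18.5 over E14.5 in bladder epithelium for each tested member of 16 gene lists, 1 point per gene with TMM scaling, filled where the adjusted p was under 0.05. The black bar is the list median with TMM and the red bar the median with pan-epithelial scaling; the timing genes lie lowest by median, at -1.25, and the mesenchyme genes highest, at 3.06.

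Called genes with a mean of at least 5 CPM at either stage and no overlap of the stages were ranked by size of change. Predicted, clone and numbered-locus symbols were passed over, here and in the rankings below. The 8 largest rises so ranked were of genes at or near 0 at E14.5. They include the mast cell genes Tpsb2 and Cma1 described above, and 6 of the 8 had no count at E14.5. Serpina3c, a serine protease inhibitor, Mcpt4, a mast cell protease, Ms4a4d, a membrane protein, and Npy6r were at least 370-fold, 299-fold, 254-fold and 296-fold higher, Npy6r with a wide spread of 12.1, 7.37 and 1.61 CPM. Among genes called in all 3 fits, the highest by size were Ckm, a muscle creatine kinase (10.71, and 11.52 without the first E14.5 library), Mc5r, a melanocortin receptor that was at least 284-fold higher, Clec3b, Hsd11b1 and Xdh. Synm, an intermediate filament protein of muscle, was 171-fold higher. Clec3b, a secreted lectin-like protein, was at 0.329, 0.0525, 0.173 and 0.063 CPM and then at 127, 163 and 101 CPM, a change of 9.71 (10.48 without the first E14.5 library). Xdh, xanthine oxidoreductase, was at 0.179, 0.0525, 0.26 and 0.126 CPM and then at 48.1, 51 and 49.4 CPM, a change of 8.38 with an SE of 0.29 (adjusted p = 3.14e-05). Xdh also rose in the urethra, by 5.51.

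C3, the central complement protein, and Areg, a ligand of the EGF receptor, also belong to that group, at 217-fold and 148-fold; without the second E14.5 library the change of Areg was 9.22 in place of 7.21. Areg was at 7.29, 21.9 and 20 CPM at E18.5 and at most 0.315 CPM at E14.5. On the side of the drops called in all 3 fits stood, beside Ihh and Cldn6, the genes Lypd2, Palm3, Gipc2, Tspan1, Tesc and Ces1d. Lypd2, a small membrane-anchored protein, went from 23.4, 54.6, 81.6 and 55.7 CPM to 1.9, 3.5 and 2.37 CPM, 20.5-fold lower. Palm3 and Gipc2 dropped 12.3-fold and 11.8-fold, and in the first E14.5 library both were below the others of its stage. Tspan1, a tetraspanin, dropped 9.33-fold in the bladder while its urethral change was 2.45, a difference of -5.70 (adjusted p = 6.61e-05). Ces1d, a carboxylesterase, changed by -5.24, and by -6.34 without the second E18.5 library.

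The differences from the urethra of the largest size below 0 included Slc26a9, Vil1 and Clca1. Slc26a9, an anion transporter, was at 2, 6.36, 4.89 and 8.19 CPM and then at 0.453, 0.219 and 0.0948 CPM, with a change of -4.37 in the bladder (-5.05 without the first E18.5 library) and 4.16 in the urethra. Vil1, the microvillus protein villin of gut-like epithelium, changed by -1.85 in the bladder and 4.81 in the urethra. Clca1, a secreted protein of mucous epithelia, went from 198, 283, 408 and 193 CPM to 23.6, 53.8 and 11.5 CPM in the bladder, a change of -3.18 (-3.92 without the second E18.5 library), against 3.03 in the urethra. The differences of the changes were -8.56, -6.69 and -6.24 (adjusted p = 0.000209, 0.000122 and 0.00177), well beyond the 1.36 by which pan-epithelial scaling moved the median of all genes. S100g, a calcium-binding protein, Neb, which encodes nebulin, and Reg3g, an antimicrobial lectin, showed differences of -6.30, -6.10 and -6.08, with bladder levels of at most 3.55, 10.7 and 2.8 CPM. For Tmprss11g, a protease, the difference of -6.94 came from a urethral change of 8.50, since the bladder stayed at 1.18 CPM or less.

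Of the differences above 0, those of the mast cell genes Tpsb2 (9.86) and Cma1 (8.90) were the largest, followed by Wnt10b and Cpa3 (7.79). Wnt10b, a Wnt ligand, had 2 counts in the E14.5 bladder libraries and reached 4.39, 2.88 and 1.19 CPM at E18.5, a ratio of 180 with a 95% interval of 49.2 to 1496. Its urethral change was -1.15 and the difference 8.26 (adjusted p = 0.000275). Hdc and Il1rl1, a histidine decarboxylase and a receptor that mast cells express, had differences of 7.08 and 6.83. Hdc was not called in the bladder (2.40, adjusted p = 0.0765); without the third E14.5 library, its highest at 8.44 CPM, its change was 3.95 and was called (adjusted p = 0.00176).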

How the data were processed

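RNA of 7 bladder and 7 urethral epithelium libraries was sequenced. The deposited values are raw counts per gene symbol in 2 tables, 1 per stage, which were joined on the symbol; the same tables give each gene's exon length. Reads were aligned with HISAT2 2.2.1 and handled with SAMtools 1.9 on GRCm38, per the submitters' processing notes. Which program counted the reads, against which annotation and whether by strand, is not given in the sources used here. Hence genes sharing reads with a copy, an overlapping gene or an antisense gene are uncertain. In each library genes at 2 counts were 2.19 to 2.78 times as many as genes at 1, as when both mates of a pair are counted; intervals and floors (3 counts) cover counting error only and are then too narrow. The labels name litters as samples, and no 2 bladder libraries of a stage agreed within counting noise (chi-square per gene 12.8 to 65.1). The closest pair was the second and the fourth E14.5 library, at 12.8. The next closest was the third and the fourth, at 32.0. Whether the closest pair shares a litter was not tested.

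The main test was edgeR 4.0.16 (R 4.3.3), TMM scaling, filterByExpr and the quasi-likelihood test over the 7 bladder libraries, with Benjamini-Hochberg adjustment. The difference from the urethra was an interaction over 14 libraries. Alternatives were median-of-ratios size factors, pan-epithelial scaling, other filters, DESeq2 1.42.0, limma 3.58.1 voom, all 14 libraries with and without a mesenchyme covariate, a replicate block, a fold threshold and leaving out each library. The fits were tested on simulated data. Named genes are a panel of 28, the 8 largest changes in each direction with at least 5 CPM and no overlap, the 10 largest called in all 3 fits, up to 4 members per list by smallest adjusted p with the strongest opposite member and any member where a count is 5 or fewer, and the 8 largest differences from the urethra. Predicted, clone and numbered-locus symbols were passed over in the choices by size. The other timing genes, pan-epithelial genes and Stat2 complete their lists. Some results of this rule are not reported here. Members and the 46 gene lists were chosen with earlier results of these data known. Depth was 21101269 to 36810672 counts a library. Stages come from different litters, and their same-numbered libraries did not deviate together. Each litter gave both tissues, per the labels, which do not say that equal numbers mark a litter; same-numbered bladder and urethra libraries of a stage had correlations of deviations from -0.19 to 0.39. The interaction was not blocked, and a litter block on these numbers was added after the data were seen.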

Additional observations from a re-analysis of the deposited data

Results flagged for a closer look

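In the E14.5 bladder group single libraries stood apart from the other 3 for 16 of the 170 genes named, by Dixon's test at the 95% level, which chance alone does for about 1 in 20 groups. The first library stood apart for Acta1 (5.86 CPM), Cma1 (0.0598 CPM), Col17a1 (14.7 CPM), Fabp4 (90.5 CPM), Hoxb13 (28.1 CPM), Igf2bp3 (247 CPM), Krt5 (546 CPM), Per1 (32.6 CPM), Scnn1a (7.47 CPM), Synm (2.45 CPM) and Wnt10b (0.0598 CPM). The third library stood apart for Esrp2 (199 CPM), Hbb-y (137 CPM), Hmga1 (109 CPM) and Rxra (492 CPM), and the fourth for Wnt6 (5.55 CPM). Cma1 and Wnt10b rest on 2 counts in the first library with none in the others, which says nothing of that library; of the other 14 cases it was the one in 9. It was high for basal and lipid genes and low for Hoxb13 and Igf2bp3, and its mesenchyme sum was neither the highest nor the lowest of its group. The E18.5 group has 3 libraries and could not be tested in this way.

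The stage change differed between bladder and urethral epithelium for 110 of the 170 genes named (edgeR interaction test, adjusted p under 0.05 over 18286 genes). The bladder change lay above the urethral change in 58 and below it in 52. Over all 18286 genes 12.2% lay above and 10.7% below. Some genes were named for the size of this difference and others for their bladder change, so the count does not stand for all genes. Values are differences of log2 changes, bladder minus urethra. With a litter block 103 of the 110 kept the call, and Arid3a, Cdkn1b, Dlk2, Hsd11b2, Mycn, Nrarp and Sox2 did not (adjusted p between 0.0501 and 0.0999). The differences are relative to TMM scaling, and with pan-epithelial scaling the median over all genes is 1.36 higher. The mesenchyme sums of the stages lay apart in the bladder and overlapped in the urethra, and their part in the differences was not tested. Among genes of epithelial differentiation, adhesion and transport, the bladder change lay above the urethral one for Krt14 (5.63), Krtdap (5.33), Cldn10 (4.51), Igfbp2 (3.63), Klf4 (1.93) and Dlk2 (1.40). In the same group it lay below it for Reg3g (-6.08), Krt13 (-5.38), Lor (-3.90), Scnn1a (-3.39), Cldn6 (-2.85), Elf3 (-2.75), Scnn1b (-2.74), Dsc2 (-2.27), Spint1 (-1.85), Pparg (-1.78), Ovol1 (-1.77), Klf5 (-1.77), Ocln (-1.76), Foxa1 (-1.51), Cdh1 (-1.41), St14 (-1.24), Epcam (-1.23), Marveld2 (-1.21), Gata3 (-1.18), Jup (-1.17), Rxra (-1.16), Spint2 (-1.09), Pkp2 (-0.92) and Ap1m2 (-0.86). Among genes of lipid, sterol and sugar metabolism, the bladder change lay above the urethral one for Cd36 (4.35), Nr1h3 (3.26) and Scd1 (2.84). Among genes of the cell cycle, fetal timing, imprinting and posterior identity, the bladder change lay above the urethral one for Dlk1 (2.57), Lin28b (2.41), Mycn (2.13), Sgce (2.08), E2f1 (1.63), Plagl1 (1.58), Cdkn2c (1.46), Igf2 (1.35), Mki67 (1.11), Bub1b (0.91) and Cdkn1b (0.62). In the same group it lay below it for Vil1 (-6.69), Hoxb13 (-1.71), Hoxd13 (-1.27), Sox2 (-1.21), Igf2bp3 (-0.73), Arid3a (-0.60) and Igf2bp2 (-0.51). Among genes of the signalling pathways, the bladder change lay above the urethral one for Wnt10b (8.26), Notum (5.98), Wnt2 (4.04), Bmp4 (3.84), Gli1 (3.75), Hhip (3.44), Ptch1 (3.14), Axin2 (2.76), Wnt6 (2.74), Fgf7 (2.65), Jun (1.57) and Nrarp (0.99). In the same group it lay below it for Ihh (-6.11), Id1 (-1.54), Fgfr3 (-1.35), Wnt7b (-1.32), Fgfr2 (-1.02) and Shh (-0.99). Among genes of hormone, interferon and xenobiotic responses, the bladder change lay above the urethral one for Hsd11b1 (6.63), Ahrr (5.07), Hsd11b2 (3.36), Isg15 (2.95), Cebpd (2.57), Ifit1 (2.26), Bst2 (1.98), Dusp1 (1.53), B2m (1.20) and Hmox1 (0.66). In the same group it lay below it for Nr3c2 (-1.31). Among genes of other cell types, the bladder change lay above the urethral one for Tpsb2 (9.86), Cma1 (8.90), Cpa3 (7.79), Hdc (7.08), Des (3.67), Mrc1 (3.43), Pecam1 (3.42), Col3a1 (2.96), Acta2 (2.77) and Col1a1 (2.60). In the same group it lay below it for Msln (-4.63), Ret (-2.47) and Kit (-1.13). Among genes of no list, named for the size of their change, the bladder change lay above the urethral one for Mc5r (7.62), Il1rl1 (6.83), Synm (4.54), Clec3b (3.95), C3 (2.97) and Xdh (2.83). In the same group it lay below it for Slc26a9 (-8.56), Tmprss11g (-6.94), S100g (-6.30), Clca1 (-6.24), Neb (-6.10), Tspan1 (-5.70), Lypd2 (-5.49), Ces1d (-3.06), Gipc2 (-2.39), Tesc (-2.24) and Palm3 (-1.79).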

How the results depend on the processing

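Counts of genes higher and lower at E18.5 stayed within 1.5 times of 3698 and 3519 with other size factors, other filters, DESeq2, voom and all 14 libraries, and ran from 2855 to 3885 and from 2401 to 3737 when 1 bladder library was left out. They moved further with pan-epithelial scaling (7748 and 459) and with the mesenchyme covariate (198 and 357). With a change of at least 1 required, 2519 were higher and 559 lower. With the replicate block, on numbers that do not pair the samples (correlations of deviations -0.03, -0.22 and -0.38), they were 1541 and 1176; there 34 of 150 named calls were lost, and 0 members were higher in the uroplakin, simple keratin, desmosome, erythroid and neural lists. Bladder changes above and below the urethral ones numbered 12881 and 273 with pan-epithelial scaling in place of 2233 and 1950. With libraries of a stage and number taken as 1 litter, an alternative chosen after seeing the data, they were 2242 and 2080, and 3614 of the calls were kept. They ran from 1515 to 2691 and from 1122 to 3006 without single libraries; the lower count moved by over 1.5 times without the first urethral E14.5 library (3006), the second (1266) or the fourth (1272), the first urethral E18.5 library (1122), the fourth bladder E14.5 library (1282) or the first bladder E18.5 library (1294). Of 150 named genes called, 138 kept the call without any 1 bladder library. Many of these were named for a small adjusted p or a large change, so this share does not stand for other genes. Among called members of whole lists, 1 of 5 uroplakin, 1 of 6 mitosis and 7 of 15 DNA replication genes kept it. So did 7 of 7 timing and 12 of 12 macrophage genes.

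With pan-epithelial scaling more members were higher than lower, against the balance with TMM, in lists whose lower members then numbered 0 (pan-epithelial, desmosome, cholesterol synthesis, mitosis), 1 (DNA replication, urethral patterning), 3 (posterior Hox) and 4 (tight junction). The medians of 8 of 46 lists changed sign: cholesterol synthesis, desmosome, hindgut endoderm, mitosis, posterior Hox, retinoic acid, tight junction and transport. With the covariate the balance of calls turned among urothelial transcription factors, where 1 was higher and 0 were lower. It also turned in the imprinted, hedgehog, FGF, mesenchyme, mast cell, erythroid, neural and mesothelial lists, where 0 were higher and at least 1 was lower. The mesenchyme genes make up the covariate itself. Most other lists had 0 members called higher too, since only 13 of the 46 lists had any. When 1 library was left out, between 1 (without the first E18.5 library) and 5 erythroid genes were higher. Single genes changed sign with pan-epithelial scaling to 0.0119 (Ap1m2) and 0.0376 (Jup). With the covariate those that changed sign were Ap1m2 (0.11), Cdh1 (0.42), Dlk1 (-0.27), Dsc2 (0.13), E2f1 (-0.0700), Elf3 (0.75), Esrp1 (0.29), Fgfr2 (0.0352), Gata3 (0.50), Gli1 (-0.11), Jup (0.47), Lgr4 (0.16), Ovol1 (0.47), Pecam1 (-0.39), Plagl1 (-0.0633), Scnn1a (0.16), Scnn1b (0.34) and Spint1 (0.57). The cause of these shifts was not tested. Genes with 1 to 3 counts in a group are limited by depth, and litters per stage limit the precision of all others.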
